A study of Mus musculus with 6 samples.

Results

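The genes described here were the members of the INK4, ARF and RB network that hold back division in cultured fibroblasts, together with Trp53 and Bmi1. They were taken by name: Cdkn2a, Cdkn2b, Cdkn2c, Cdkn2d, Cdkn1b, Rb1, Rbl1, Rbl2, Trp53 and Bmi1, 10 of the 27179 genes in the count data. Their RNA was measured in 3 immortalized mouse embryonic fibroblast (MEF) lines of C57BL/6 background with 2 RNA-seq libraries each, to ask which of these barriers each line still expressed. The libraries labelled Cry/Per_KO carried cry1-/-, cry2-/-, per1-/- and per2-/-, those labelled Cry/Per/Nr1d_KO carried nr1d1-/- and nr1d2-/- in addition, and those labelled Per/Nr1d_KO carried per1-/-, per2-/-, nr1d1-/- and nr1d2-/-. All 3 lines therefore lacked Per1 and Per2, and no line with an intact clock was measured. Cry/Per/Nr1d_KO was 1 clone, made from Cry/Per_KO cells by Cas9 and guides to Nr1d1 and Nr1d2, and Per/Nr1d_KO was derived separately. How the lines were immortalized is not given in the sources used here. Each line stood for its genotype alone, so the genotype and any other difference between the lines cannot be told apart.

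The names under which the counts were deposited give the other assignment for both pairs with mutated Cry genes. The sample titles of the pair with 6 mutated genes hold PN_KO after CMEF cells, which names no Cry mutation and is also the ending of the Per/Nr1d_KO titles. The genotype labels were followed, and these libraries are called CP-labelled and CPN-labelled below. An exchange of these names would turn the sign of every difference between the CP-labelled and CPN-labelled libraries and would swap the comparisons of Per/Nr1d_KO with either of them. It would leave each library's value as it is. The RNA of Arntl and Cry1 goes against the genotype labels. NR1D1 and NR1D2 are known to repress Arntl (BMAL1) and Cry1, yet Arntl had 2176 and 2208 normalized counts in the CP-labelled libraries, whose genotype keeps Nr1d1 and Nr1d2, and 1191 and 1171 in the CPN-labelled ones. Arntl was 0.89 ± 0.06 higher on the log2 scale in the former (edgeR, adjusted p = 2.42e-09), and had 2493 and 2455 normalized counts in Per/Nr1d_KO. Cry1, itself mutated in both of these genotypes, had 5323 and 5478 normalized counts in the CP-labelled and 1698 and 1724 in the CPN-labelled libraries. Nr1d1 had 9337 and 9249 in the CP-labelled and 3158 and 3146 in the CPN-labelled libraries. Nr1d2, Per1 and Per2 were also higher in the former. The paper reports these transcripts lower in Cry/Per_KO than in Cry/Per/Nr1d_KO. Cry2, which it reports as similar, had 7783 and 7824 in the CP-labelled and 6908 and 6476 in the CPN-labelled libraries. Whether the names were exchanged was not tested. Every direction between these libraries below is that of the labels and turns with the exchange, under which Cdkn2d and Cdkn1b would be highest in Cry/Per/Nr1d_KO and Bmi1 highest in Cry/Per_KO.

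In fibroblasts, cyclin D with CDK4 or CDK6 phosphorylates the pocket proteins RB (Rb1), p107 (Rbl1) and p130 (Rbl2), which releases E2F factors and starts the S phase. The INK4 proteins p16INK4a (Cdkn2a), p15INK4b (Cdkn2b), p18INK4c (Cdkn2c) and p19INK4d (Cdkn2d) block CDK4 and CDK6, and p27 (Cdkn1b) blocks CDK2 complexes. Cdkn2a also encodes p19ARF from an alternative first exon, which binds MDM2 and so stabilizes p53 (Trp53). BMI1, a subunit of Polycomb repressive complex 1 (PRC1), represses the Cdkn2a locus. Mouse embryonic fibroblasts are known to escape senescence mostly by loss of ARF or of p53 function.

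The libraries held between 53764390 and 85927236 counts, and counts were scaled to the mean effective library size (normalized counts). Across the 2 libraries of a line the log2 levels of all genes correlated at 0.997 to 0.998, a description over genes. The summed level of 12 fibroblast markers lay between 872844 and 1001466 normalized counts in the CP-labelled and CPN-labelled libraries, and at 1715897 and 1733844 in those of Per/Nr1d_KO. Of 9 of these markers tested, 0 were called higher and 2 lower in the CP-labelled libraries relative to the CPN-labelled ones, 4 higher and 4 lower in Per/Nr1d_KO relative to the latter, and 3 higher and 4 lower relative to the CP-labelled ones. Thy1 had at most 6.21 and Lum at most 9.77 normalized counts in a library, between 0 and 2 of the 12 were at 0, and the part of these differences in the results below was not tested. The 17 markers of other cell types summed to between 638 and 2355 normalized counts, with 4 to 7 of them at 0 in a library, and 2 of the 17, Tubb3 and Cd68, passed the expression filter. Tubb3 was called in all 3 comparisons (log2 fold changes of -2.38, -1.48 and 0.90 in the order given below) and Cd68 higher in both of Per/Nr1d_KO (1.14 and 0.81), and their part in the results was not tested either. The 6 mutated clock genes each had at least 1004 normalized counts in every library, so no mutation showed as a missing transcript.

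All 10 genes were transcribed in every library, and the same gene headed and the same gene closed the order in each line. Levels between genes were compared as normalized counts per kb of annotated exon. Cdkn2a was the highest, at 15475 ± 1022 normalized counts per kb (SD, n = 2) in the CP-labelled libraries, 14713 ± 720 in the CPN-labelled ones and 16211 ± 227 in Per/Nr1d_KO. Trp53 came next in all 3 lines, at 2544 ± 127, 3632 ± 38 and 4117 ± 329 normalized counts per kb in the same order. Rb1 was the lowest, at 258 ± 12, 196 ± 11 and 335 ± 9 normalized counts per kb. No library of Cdkn2a, Trp53 or Rb1 overlapped the next gene in the order of its line.

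**Figure D1:**
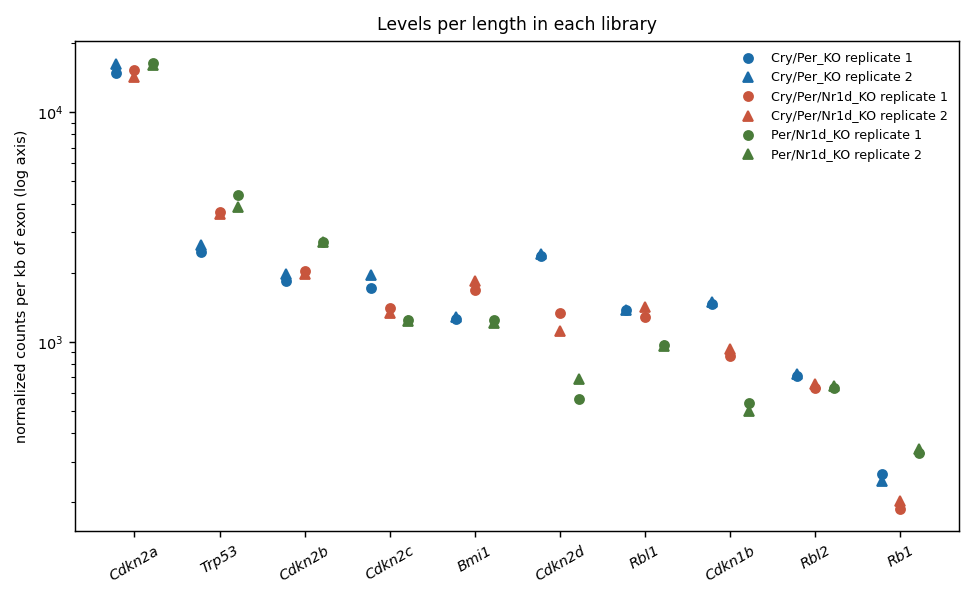
Normalized counts per kb of exon of the 10 genes in each of the 6 libraries, on a log axis, with colours for the labelled lines and symbols for replicates 1 and 2. Cdkn2a lies above 14204 in every library and Rb1 below 341.5, and the points of Cdkn2d and Cdkn1b spread the most between lines.

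Between these ends the order differed from line to line. In the CPN-labelled libraries it ran Cdkn2b, Bmi1, Cdkn2c, Rbl1, Cdkn2d, Cdkn1b and Rbl2, where Rbl1 overlapped with both Cdkn2c and Cdkn2d. In the CP-labelled libraries it ran Cdkn2d, Cdkn2b, Cdkn2c, Cdkn1b, Rbl1, Bmi1 and Rbl2, and only Cdkn2b and Cdkn2c overlapped. In Per/Nr1d_KO it ran Cdkn2b, Cdkn2c, Bmi1, Rbl1, Rbl2, Cdkn2d and Cdkn1b, where Cdkn2c overlapped Bmi1 and Rbl2 overlapped Cdkn2d. Cdkn2d thus stood at rank 3 in the CP-labelled libraries, at rank 7 in the CPN-labelled ones and at rank 8 in Per/Nr1d_KO.

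Differences between lines were tested with edgeR over the 11934 genes whose mean reached 100 normalized counts, a filter that all 10 genes passed. A call needed an adjusted p (Benjamini-Hochberg) under 0.05 and a log2 fold change beyond 0.81 in either direction, the fold limit. In the CP-labelled libraries relative to the CPN-labelled ones, 1 of the 10 genes was called, against 16.8% of all genes tested. In Per/Nr1d_KO relative to the CPN-labelled libraries, 1 of 10 was called, against 20.7%. In Per/Nr1d_KO relative to the CP-labelled libraries, 2 of 10 were called, against 29.0%. Cdkn2d was called in all 3 comparisons, and Cdkn1b in the last. Of all genes tested, 7.86% were called higher and 8.95% lower in the first comparison, 11.3% and 9.35% in the second, and 15.2% and 13.8% in the third, and all comparisons below are given in this order.

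Without the limit on the fold, 7, 9 and 8 of the 10 genes differed in these comparisons at an adjusted p under 0.05, against 76.4%, 75.8% and 82.1% of all genes tested. In the second comparison this was lost for Cdkn2c, Cdkn2a and Trp53 with some libraries left out. For Cdkn2c the adjusted p was 0.0651 with the replicate number as a block, 0.192 without replicate 1 of the CPN-labelled libraries, and 0.103 and 0.159 without replicate 1 or 2 of Per/Nr1d_KO. For Cdkn2a it was 0.165 without replicate 2 of the CPN-labelled libraries, and 0.108 and 0.0567 without replicate 1 or 2 of Per/Nr1d_KO. For Trp53 it was 0.149 without replicate 1 of Per/Nr1d_KO. The libraries of the compared lines did not overlap for 7, 9 and 9 of the 10, against 86.4%, 87.1% and 90.4%. The median log2 fold change of the 10 genes was 0.12, -0.08 and -0.10, beside -0.0033, 0.01 and 0.03 for all genes tested. Their median absolute log2 fold change was 0.41, 0.46 and 0.51, beside 0.34, 0.34 and 0.46 for all genes tested. The count called in each comparison was thus about 1 gene below the share of all genes tested. The 3 comparisons share libraries and are not independent of each other. In bulk RNA, fewer cells with a transcript and less of it per cell cannot be told apart.

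**Figure D2:**
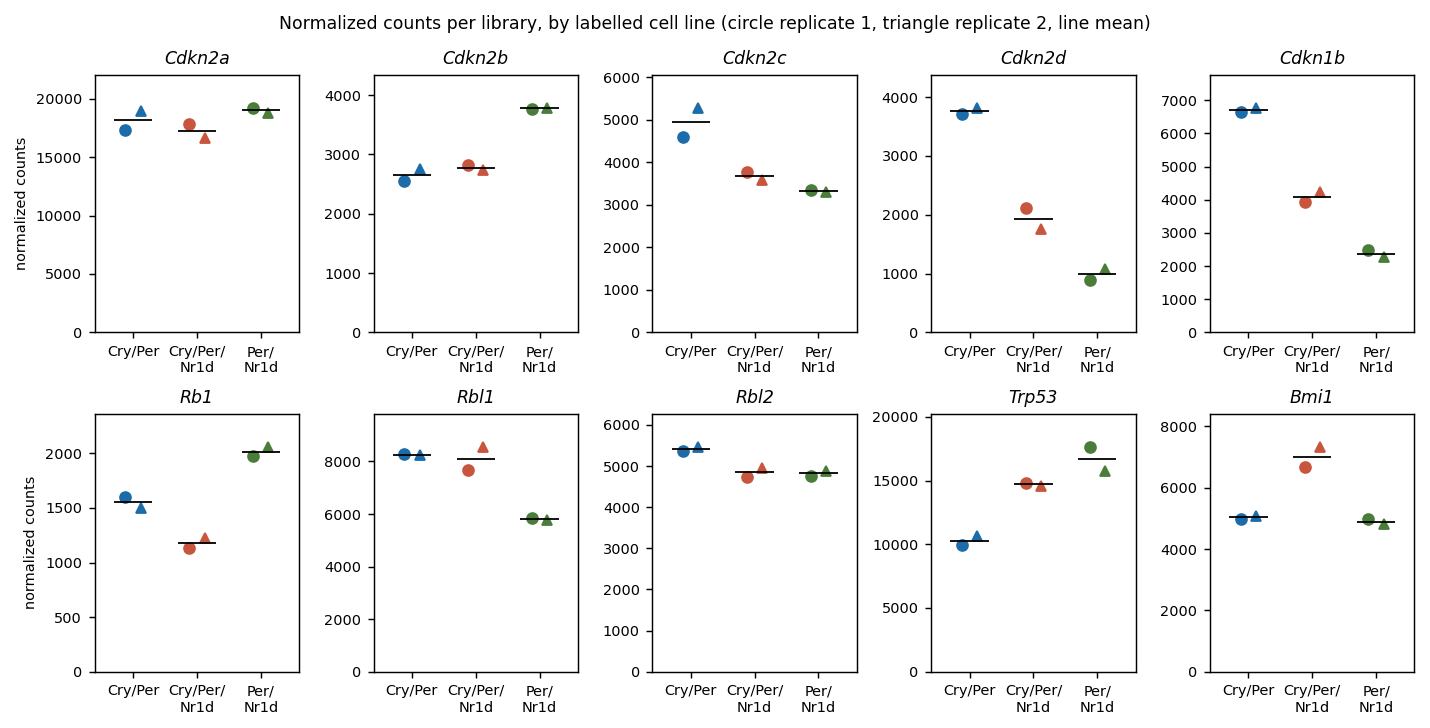
Normalized counts of the 10 genes in each library, with 1 panel per gene, each with its own axis from 0, and the labelled lines along the horizontal axis. Circles are replicate 1, triangles replicate 2 and lines the mean. Cdkn2d and Cdkn1b fall into 3 separate levels, highest in the CP-labelled libraries and lowest in Per/Nr1d_KO, while the Cdkn2a values of all lines lie between 16647 and 19187.

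Cdkn2a (Entrez Gene 12578; GRCm38 chromosome 4, from 89274473 to 89294619, minus strand) was the most evenly expressed INK4 gene. It had 17290 and 18984 normalized counts in the CP-labelled libraries, 17841 and 16647 in the CPN-labelled ones, and 19187 and 18811 in Per/Nr1d_KO. Per/Nr1d_KO lay above the CPN-labelled libraries, and the CP-labelled libraries overlapped with both. Cdkn2a was 0.14 ± 0.05 higher on the log2 scale (± SE) in Per/Nr1d_KO than in the CPN-labelled libraries (adjusted p = 0.0212), which is 1.10-fold. The CP-labelled libraries lay 0.07 ± 0.05 above the CPN-labelled ones (adjusted p = 0.203) and 0.07 ± 0.05 below Per/Nr1d_KO (adjusted p = 0.234). A count per gene pools both transcripts of Cdkn2a, so these values do not separate p16INK4a from p19ARF, nor do they tell whether the protein made was functional.

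The 2 start regions that this count pools are shown because their transcripts encode different proteins. RefSeq (GRCm38.p6) gives the ARF start region at chr4:89294570-89294869 and the p16INK4a start region at chr4:89282143-89282442, both on the minus strand, each from 250 bases before to 50 bases after the start. Capitals mark a match to an E2F string.
Cdkn2a, ARF start: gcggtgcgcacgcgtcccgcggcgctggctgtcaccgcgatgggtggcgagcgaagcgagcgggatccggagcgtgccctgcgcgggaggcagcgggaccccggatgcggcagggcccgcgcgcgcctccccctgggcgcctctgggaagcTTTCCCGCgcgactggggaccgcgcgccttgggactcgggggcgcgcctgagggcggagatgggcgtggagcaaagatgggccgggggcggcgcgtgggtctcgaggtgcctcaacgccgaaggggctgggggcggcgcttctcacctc
Cdkn2a, p16INK4a start: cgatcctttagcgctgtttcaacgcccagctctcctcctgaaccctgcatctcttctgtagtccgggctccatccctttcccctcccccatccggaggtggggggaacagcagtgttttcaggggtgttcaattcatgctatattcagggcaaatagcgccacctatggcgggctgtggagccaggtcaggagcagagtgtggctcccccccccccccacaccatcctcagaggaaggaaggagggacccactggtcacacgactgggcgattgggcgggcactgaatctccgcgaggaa

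Strings searched in these windows, on both strands, were the E-box CACGTG, which CLOCK-BMAL1 is known to bind, and the E2F strings TTTGGCGC, TTTCCCGC, TTTGCCGC and TTTCGCGC. The E-box reads the same on both strands, and a window counted once however many matches it held. RefSeq windows were found for 9 of the 10 genes, 11 windows in all, and Rb1 had no entry. The ARF window held TTTCCCGC 99 bases before the start, and the p16INK4a window held none of the 5 strings. E2F strings were in 2 of the 11 windows (Cdkn2a at the ARF start, and Rbl1), against 2.26% of 32851 promoter windows. The E-box was in 3 of the 11 (Bmi1, Trp53 and the downstream start of Cdkn2c), against 7.15%. A match is a run of letters and not a measured binding site.

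Of the neighbours of Cdkn2a in the count data, Mtap, Cdkn2b and Tusc1 passed the expression filter. Mtap, which salvages methionine and is often lost together with CDKN2A in human tumours, had 14491 and 15021 normalized counts in the CP-labelled libraries, 17619 and 17796 in the CPN-labelled ones, and 15576 and 15577 in Per/Nr1d_KO. Mtap, Cdkn2a and Cdkn2b thus had at least 2557 normalized counts each in all 6 libraries. The interferon genes on the other side of Mtap lay between 0 and 16.5 normalized counts. Beyond Cdkn2b, Dmrta1, Zfp352, Elavl2 and Izumo3 lay between 0 and 44.2 normalized counts. Past these, Tusc1 had 316 and 338 normalized counts in the CP-labelled libraries, 92 and 80 in the CPN-labelled ones, and 398 and 419 in Per/Nr1d_KO.

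Cdkn2b (Entrez Gene 12579; chromosome 4, from 89306289 to 89311032), the neighbour of Cdkn2a and a known target of TGF-beta signalling, was higher in Per/Nr1d_KO than in both other lines. It had 2557 and 2750 normalized counts in the CP-labelled libraries, 2815 and 2734 in the CPN-labelled ones, and 3772 and 3780 in Per/Nr1d_KO. The first 2 lines overlapped and Per/Nr1d_KO lay above both. The difference was 0.44 ± 0.05 (log2 fold change ± SE, adjusted p = 1.85e-06) from the CPN-labelled libraries and 0.51 ± 0.05 (adjusted p = 3.12e-07) from the CP-labelled ones, both within the fold limit. The 20 nearest genes tested had a median log2 fold change of -0.28 and -0.30 in these comparisons.

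Cdkn2c (Entrez Gene 12580; chromosome 4, from 109660876 to 109666756) was highest in the CP-labelled libraries, by less than the fold limit. It had 4602 and 5270 normalized counts there, 3771 and 3584 in the CPN-labelled libraries, and 3350 and 3307 in Per/Nr1d_KO, and no line overlapped another. The CP-labelled libraries were 0.42 ± 0.06 higher on the log2 scale than the CPN-labelled ones (adjusted p = 1.25e-05) and 0.57 ± 0.06 higher than Per/Nr1d_KO (adjusted p = 3.69e-07). The gap of -0.14 ± 0.06 between Per/Nr1d_KO and the CPN-labelled libraries (adjusted p = 0.0425) was no larger than the chromosome 4 median of -0.16.

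Cdkn2d (Entrez Gene 12581; chromosome 9, from 21288459 to 21291421, minus strand) showed the largest differences of the 10 genes. It had 3711 and 3811 normalized counts in the CP-labelled libraries, 2111 and 1758 in the CPN-labelled ones, and 891 and 1086 in Per/Nr1d_KO. The 3 lines were fully separate, with the lowest raw count at 703. Cdkn2d was 1.94-fold higher in the CP-labelled libraries than in the CPN-labelled ones (log2 fold change 0.96 ± 0.09, adjusted p = 8.61e-08). It was 1.95-fold lower in Per/Nr1d_KO than in the CPN-labelled libraries (-0.96 ± 0.09, adjusted p = 1.59e-07) and 3.77-fold lower than in the CP-labelled ones (-1.92 ± 0.09, adjusted p = 2.04e-11). A test against the fold limit itself (glmTreat) kept the last of these calls and not the others, with adjusted p = 0.115 and 0.0981.

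Chromosome 9, where Cdkn2d lies, differed between the lines in the same directions. Over its 657 genes tested, the median log2 fold change was 0.38 for the CP-labelled libraries relative to the CPN-labelled ones, -0.46 for Per/Nr1d_KO relative to the latter, and -0.84 for Per/Nr1d_KO relative to the CP-labelled ones. In the last comparison 345 of the 657 were called lower and 27 higher. The 20 nearest genes tested had medians of 0.25, -0.45 and -0.68. With the chromosome median subtracted, the log2 fold change of Cdkn2d was 0.58, -0.50 and -1.08, and the first 2 no longer passed the fold limit. Cdkn1b, with the median of its own chromosome subtracted, was at -0.71 and -1.09 in the last 2 comparisons. Cdkn2d thus no longer showed the largest difference there. The part of the chromosome in the result was not tested.

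Cdkn1b (Entrez Gene 12576; chromosome 6, from 134920401 to 134925525) followed the same order of lines as Cdkn2d. It had 6634 and 6761 normalized counts in the CP-labelled libraries, 3939 and 4247 in the CPN-labelled ones, and 2472 and 2273 in Per/Nr1d_KO, with no overlap between lines. It was 2.83-fold lower in Per/Nr1d_KO than in the CP-labelled libraries (log2 fold change -1.501 ± 0.056, adjusted p = 1.08e-12). The other differences stayed inside the fold limit, at 0.71 ± 0.05 for the CP-labelled libraries relative to the CPN-labelled ones (adjusted p = 1.24e-08) and -0.79 ± 0.06 for Per/Nr1d_KO relative to the latter (adjusted p = 4.18e-09). Without replicate 1 of the CPN-labelled libraries or replicate 1 of Per/Nr1d_KO this last value was -0.84 or -0.85 and passed the limit. The 20 nearest genes tested moved with Cdkn1b, with medians of 0.62, -0.91 and -1.23 in the 3 comparisons, while the 560 genes tested on chromosome 6 had medians of 0.35, -0.08 and -0.41. The part of these neighbours in the result was not tested.

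**Figure D3:**
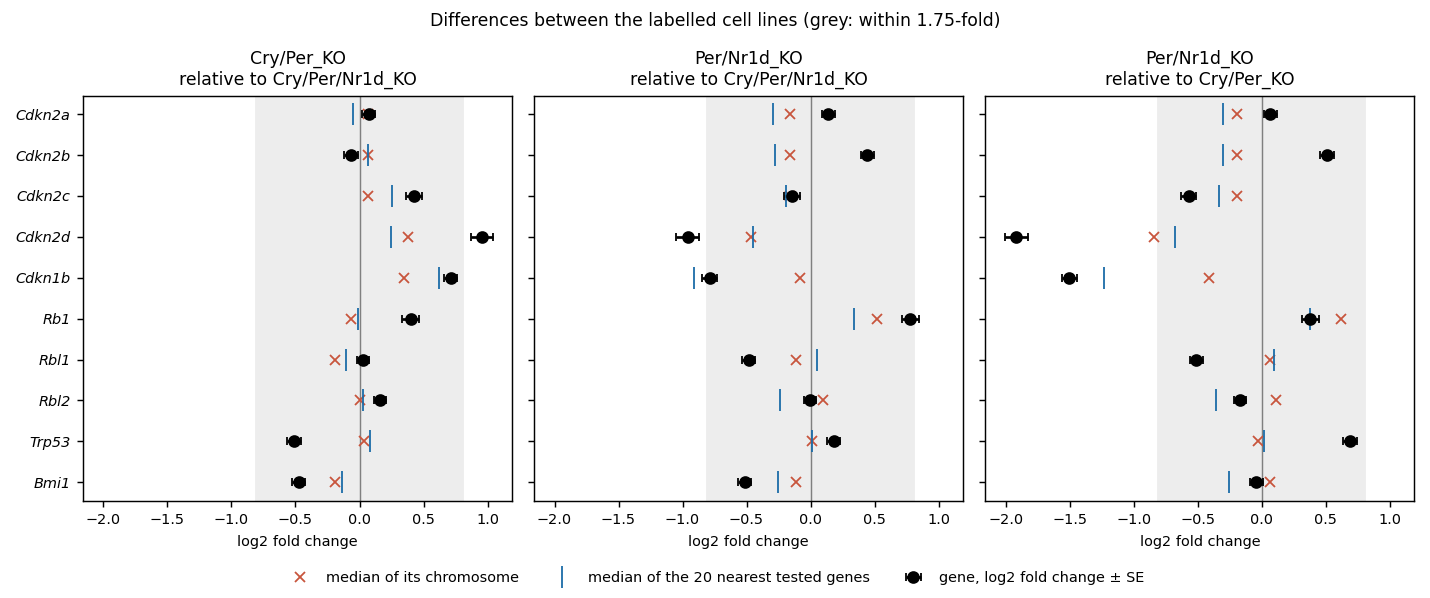
Log2 fold changes of the 10 genes with their SE (black points) in the 3 comparisons, the median of the genes tested on the same chromosome (crosses) and of the 20 nearest genes tested (bars), with the range within the fold limit in grey. Cdkn2d leaves the grey range in each comparison and Cdkn1b in the last, at -1.92 and -1.501, and the neighbours of both lie on the same side of 0.

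Of the 6 genes for ubiquitin ligases of p27, Cks1b and Rnf123 were called. Rnf123, a subunit of the KPC ligase, had 4861 and 5182 normalized counts in the CP-labelled libraries, 2568 and 2378 in the CPN-labelled ones, and 1646 and 1674 in Per/Nr1d_KO, the same order as Cdkn1b. Rnf123 lies on chromosome 9, whose medians of 0.38, -0.46 and -0.84 run in that order of lines too. The part of the chromosome in the Rnf123 result was not tested. Cks1b, a cofactor of SKP2, was called lower in the CP-labelled libraries than in both other lines, with 3491 and 4170 in the CP-labelled libraries, 8136 and 7682 in the CPN-labelled ones, and 8415 and 8305 in Per/Nr1d_KO. In the CP-labelled libraries relative to the CPN-labelled ones, 1 gene of the list was called higher and 1 lower. In Per/Nr1d_KO none was called relative to the CPN-labelled libraries, where 2 passed edgeR's adjusted p without the fold limit, and 1 was called higher and 1 lower relative to the CP-labelled ones. The list medians were -0.30, -0.02 and 0.28.

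Of 3 further genes named as CDK inhibitors, Cdkn1a was called higher in both comparisons of Per/Nr1d_KO. Cdkn1a, which encodes p21 and is a p53 target, had 5997 and 6490 normalized counts in the CP-labelled libraries, 5348 and 5166 in the CPN-labelled ones, and 24464 and 24154 in Per/Nr1d_KO. It was 2.21 ± 0.05 higher on the log2 scale in Per/Nr1d_KO than in the CPN-labelled libraries (adjusted p = 2.36e-15) and 1.96 ± 0.05 higher than in the CP-labelled ones (adjusted p = 7.02e-15). Cdkn1c, which encodes p57, had 3.34 and 3.93 normalized counts in the CP-labelled libraries, 20.42 and 19.99 in the CPN-labelled ones, and 1191 and 1012 in Per/Nr1d_KO. Cdkn1c passed the expression filter through Per/Nr1d_KO alone, so its values are given without a fold or a call. Cdkn3 was not called in any comparison, with log2 fold changes of -0.24, -0.45 and -0.22. Per/Nr1d_KO was thus the line with the least Cdkn1b and the most Cdkn1a RNA.

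The pocket protein genes differed by less than the fold limit between all lines. Rb1 (Entrez Gene 19645; chromosome 14, from 73192858 to 73325951) was highest in Per/Nr1d_KO, with 1977 and 2054 normalized counts, against 1602 and 1498 in the CP-labelled libraries and 1129 and 1223 in the CPN-labelled ones. The 3 lines did not overlap. The difference between Per/Nr1d_KO and the CPN-labelled libraries was 0.78 ± 0.07 (log2 fold change ± SE, adjusted p = 3.83e-08), just inside the limit, and without replicate 2 of the CPN-labelled libraries it was 0.84 and passed it. The CP-labelled libraries lay 0.40 ± 0.07 above the CPN-labelled ones (adjusted p = 7.22e-05) and 0.38 ± 0.07 below Per/Nr1d_KO (adjusted p = 6.49e-05).

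The 378 genes tested on chromosome 14 had medians of -0.07, 0.52 and 0.62 in the order of comparisons used above. With these subtracted, the log2 fold change of Rb1 between Per/Nr1d_KO and the CP-labelled libraries turned from 0.38 to -0.24, since the median gene of the chromosome differed by more than Rb1 did. Exons of Lpar6 and Rcbtb2 on the opposite strand cover 6.78% and 8.11% of the Rb1 exon bases. Of its stretches of 50 bases, the read length, 11.96% also occur in other annotated genes, which are again Lpar6 and Rcbtb2. The level of Rb1 may therefore depend on how such reads were assigned, which was not tested.

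Rbl1 (Entrez Gene 19650; chromosome 2, from 157145893 to 157204534), which encodes p107 and is itself an E2F target, was lower in Per/Nr1d_KO. It had 8287 and 8241 normalized counts in the CP-labelled libraries, 7692 and 8532 in the CPN-labelled ones, and 5834 and 5768 in Per/Nr1d_KO, where both values lay below all others. The difference was -0.48 ± 0.05 (adjusted p = 4.67e-07) from the CPN-labelled libraries and -0.51 ± 0.05 (adjusted p = 1.79e-07) from the CP-labelled ones. The first 2 lines differed by 0.03 ± 0.05 (adjusted p = 0.632). The Rbl1 start region, at chr2:157204485-157204784 on the minus strand (RefSeq, GRCm38.p6), is shown for the E2F string TTTCGCGC that it holds 18 bases before the start, in capitals.
Rbl1: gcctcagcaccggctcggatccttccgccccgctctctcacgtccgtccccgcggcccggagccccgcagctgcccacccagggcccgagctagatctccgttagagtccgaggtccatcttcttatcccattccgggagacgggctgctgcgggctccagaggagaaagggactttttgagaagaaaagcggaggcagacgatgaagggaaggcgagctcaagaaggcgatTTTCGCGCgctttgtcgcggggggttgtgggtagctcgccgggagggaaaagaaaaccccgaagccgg

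Rbl2 (Entrez Gene 19651; chromosome 8, from 91070057 to 91123844), which encodes p130, the pocket protein of resting cells, differed little between the lines. It had 5377 and 5453 normalized counts in the CP-labelled libraries, 4740 and 4953 in the CPN-labelled ones, and 4771 and 4874 in Per/Nr1d_KO. The CP-labelled libraries were 0.16 ± 0.05 (adjusted p = 0.00565) and 0.17 ± 0.05 (adjusted p = 0.0039) above the others, which is 1.12-fold in both cases. The values of Per/Nr1d_KO lay within the range of the CPN-labelled ones. Of the Rbl2 stretches of 50 bases, 17.1% also occur in other annotated genes, which are Gm45464 and Aktip. Both lie on the opposite strand and cover 11.8% and 9.17% of the Rbl2 exon bases.

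Of the pocket protein genes, Rb1 was thus higher and Rbl1 lower in Per/Nr1d_KO than in both other lines, while Rbl2 lay between 4740 and 5453 normalized counts in all 6 libraries. Per kb of exon, Rbl1 stayed above Rbl2 and Rbl2 above Rb1 in each library.

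Trp53 (Entrez Gene 22059; chromosome 11, from 69580348 to 69591873) was lowest in the CP-labelled libraries. It had 9927 and 10656 normalized counts there, 14801 and 14582 in the CPN-labelled libraries, and 17597 and 15713 in Per/Nr1d_KO, with no overlap between lines. The CP-labelled libraries lay 0.51 ± 0.05 below the CPN-labelled ones on the log2 scale (adjusted p = 5.48e-07) and 0.69 ± 0.05 below Per/Nr1d_KO (adjusted p = 9.67e-09), which are 1.43-fold and 1.62-fold. Per/Nr1d_KO was 0.18 ± 0.05 above the CPN-labelled libraries (adjusted p = 0.00695). The chromosome 11 medians were within 0.04 of 0 in the 3 comparisons. Of the Trp53 stretches of 50 bases, 3.95% also occur in other annotated genes, Trp53-ps among them.

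RNA of Trp53 does not show whether its protein is active, so a list of 20 p53 target genes was set beside it. Perp passed the expression filter only through Per/Nr1d_KO, so 19 are counted. In Per/Nr1d_KO, 12 were called higher and 1 lower relative to the CPN-labelled libraries, with a list median of 1.18 on the log2 scale against 0.01 for all genes tested. Relative to the CP-labelled libraries, 14 were called higher and none lower, where 2 were lower at edgeR's adjusted p without the fold limit, with a median of 1.53 against 0.03. In the CP-labelled libraries relative to the CPN-labelled ones, 1 was called higher and 2 lower, with a median of -0.43. Without the fold limit, 4 were higher and 13 lower there at edgeR's adjusted p. The list was written with earlier results of these data known.

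Perp, a p53 target in programmed cell death, had 39.0 and 25.5 normalized counts in the CP-labelled libraries, 149 and 161 in the CPN-labelled ones, and 2378 and 2533 in Per/Nr1d_KO, given without a fold or a call. Eda2r, a death receptor gene, was at 319 and 362, 536 and 538, and 5175 and 5436 normalized counts in that order. Pmaip1, which encodes the cell death protein NOXA, was at 287 and 285, 377 and 401, and 2772 and 2912. Eda2r and Pmaip1 were called higher in Per/Nr1d_KO, by 3.31 and 2.87 on the log2 scale relative to the CPN-labelled libraries. Gadd45a was the target called lower in that comparison, at -1.03. In the CP-labelled libraries relative to the CPN-labelled ones, Aen (-1.07) and Bbc3 (-0.92) were called lower and Fas (1.37) higher.

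Of 15 p53 regulators, 13 were tested. Mdm2, the ligase that ARF inhibits and also a p53 target, was called higher in Per/Nr1d_KO by 0.84 ± 0.04 relative to the CPN-labelled libraries (adjusted p = 7.78e-11) and by 1.03 ± 0.04 relative to the CP-labelled ones (adjusted p = 5.34e-12). Its normalized counts were 7603 and 7934 in the CP-labelled libraries, 8702 and 9001 in the CPN-labelled ones, and 15798 and 15982 in Per/Nr1d_KO. The kinase genes Atr (-1.20) and Chek1 (-1.09), both of the replication checkpoint, were called lower in Per/Nr1d_KO than in the CP-labelled libraries, and both lie on chromosome 9, whose median there was -0.84. No p53 regulator was called between the CP-labelled and CPN-labelled libraries, where 10 of 13 passed edgeR's adjusted p without the fold limit. The medians of the list were -0.09, -0.05 and 0.16.

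Bmi1 (Entrez Gene 12151; chromosome 2, from 18677018 to 18686629) was highest in the CPN-labelled libraries. It had 6679 and 7311 normalized counts there, 4981 and 5088 in the CP-labelled libraries, and 4970 and 4815 in Per/Nr1d_KO. The CP-labelled libraries were 0.47 ± 0.05 lower (adjusted p = 6.92e-07) and Per/Nr1d_KO 0.52 ± 0.05 lower (adjusted p = 2.31e-07) on the log2 scale, within the fold limit. Per/Nr1d_KO and the CP-labelled libraries differed by -0.04 ± 0.05 (adjusted p = 0.46). Cdkn2a, which BMI1 is known to repress, differed between the same lines by 0.14 or less on the log2 scale. Of the Bmi1 stretches of 50 bases, 16.7% also occur in other annotated genes.

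The start regions of Bmi1, at chr2:18676768-18677067, and of Trp53, at chr11:69580109-69580408, both on the plus strand (RefSeq, GRCm38.p6), are shown for the E-box that each holds, 215 bases before the start in Bmi1 and 10 bases after it in Trp53, in capitals.
Bmi1: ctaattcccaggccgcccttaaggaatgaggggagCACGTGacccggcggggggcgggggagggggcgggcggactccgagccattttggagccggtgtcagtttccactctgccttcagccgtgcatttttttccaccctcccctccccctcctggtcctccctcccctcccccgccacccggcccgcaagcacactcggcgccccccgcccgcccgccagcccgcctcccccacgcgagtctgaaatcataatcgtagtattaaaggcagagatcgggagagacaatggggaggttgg
Trp53: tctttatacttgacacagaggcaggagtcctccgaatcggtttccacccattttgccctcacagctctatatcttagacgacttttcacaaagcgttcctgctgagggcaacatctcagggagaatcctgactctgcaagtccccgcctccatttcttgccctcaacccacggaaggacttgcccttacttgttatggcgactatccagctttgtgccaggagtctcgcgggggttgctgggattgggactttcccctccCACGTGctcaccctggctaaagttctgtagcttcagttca

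Among 15 PRC1 subunits, 1, 3 and 4 were called in the 3 comparisons, against 16.8%, 20.7% and 29.0% of all genes tested. Pcgf6 (-0.93) was lower in the CP-labelled libraries relative to the CPN-labelled ones. In Per/Nr1d_KO, Cbx6 (-1.59) and Cbx8 (-1.04), which encode subunits that bind methylated histone H3, were called lower relative to the CPN-labelled libraries, and no subunit higher. Relative to the CP-labelled libraries, Cbx6 (-1.53), Cbx8 (-0.88) and Phc1 (-0.87) were called lower and Pcgf6 (1.10) higher. Cbx6 had 14531 and 15257 normalized counts in the CP-labelled libraries, 15981 and 14948 in the CPN-labelled ones, and 5123 and 5165 in Per/Nr1d_KO. The list medians were -0.03, -0.27 and -0.24.

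Among 9 PRC2 subunits, which place the methyl mark that PRC1 reads, Ezh1 (0.87) was called higher in the CP-labelled libraries relative to the CPN-labelled ones. In Per/Nr1d_KO, Jarid2 was called higher (0.83 and 0.81) and Phf19 lower (-1.02 and -1.30) relative to the CPN-labelled and CP-labelled libraries. The list medians were 0.10, 0.01 and -0.25.

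Other regulators of the INK4-ARF locus were tested for 15 of 16 genes. In Per/Nr1d_KO, 3 were called higher and 3 lower relative to the CPN-labelled libraries, and 2 higher and 4 lower relative to the CP-labelled ones. Id1, which opposes ETS activation of p16INK4a, had 654 and 672 normalized counts in the CP-labelled libraries, 1417 and 1336 in the CPN-labelled ones, and 4090 and 4136 in Per/Nr1d_KO. Ets2, which encodes such an ETS activator, ran in the same order, with 2792 and 2981, 6703 and 6782, and 13755 and 13221. In the CP-labelled libraries relative to the CPN-labelled ones, Ets2 (-1.22) and Id1 (-1.05) were the 2 genes called, both lower.

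Tbx3 and Hmga2 were called lower in Per/Nr1d_KO relative to both other lines, and Id1 and Ets2 higher. Tbx3, a T-box repressor of ARF, had 3428 and 3617 normalized counts in the CP-labelled libraries, 3111 and 3484 in the CPN-labelled ones, and 1232 and 1184 in Per/Nr1d_KO. Hmga2, a chromatin factor known to lower INK4-ARF expression, had 23940 and 24499, 32292 and 36468, and 10505 and 9729 normalized counts. Ets1, which like Ets2 encodes an ETS activator of p16INK4a, was called lower in both comparisons (-0.81 and -0.86), Twist1 (-1.19) in that with the CP-labelled libraries, and Junb (1.14) higher in that with the CPN-labelled ones. Ets1 lies on chromosome 9, whose medians in these comparisons of Per/Nr1d_KO were -0.46 and -0.84. The part of the chromosome in the Ets1 result was not tested. The medians of the list were 0.10, 0.01 and -0.07.

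Of the D-type cyclins, whose kinases the INK4 proteins block, Ccnd1 and Ccnd2 were called lower in Per/Nr1d_KO relative to both other lines. Ccnd1, which encodes cyclin D1, had 12421 and 12804 normalized counts in the CP-labelled libraries, 27777 and 27621 in the CPN-labelled ones, and 2441 and 2402 in Per/Nr1d_KO. Ccnd2 had 44870 and 45546, 28778 and 28809, and 3440 and 3198 normalized counts. Relative to the CPN-labelled libraries, the log2 fold change in Per/Nr1d_KO was -3.52 ± 0.05 for Ccnd1 (adjusted p = 7.19e-18) and -3.12 ± 0.05 for Ccnd2 (adjusted p = 4.27e-17). Ccnd1 was also called lower in the CP-labelled libraries than in the CPN-labelled ones, at -1.13 ± 0.04 (adjusted p = 4.28e-12).

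Ccnd3 lay between 6953 and 8174 normalized counts in the 6 libraries, with log2 fold changes of 0.10, 0.02 and -0.08. Cdk6 had 495 and 491 normalized counts in the CP-labelled libraries, 288 and 348 in the CPN-labelled ones, and 1186 and 1118 in Per/Nr1d_KO, where it was called higher in both comparisons (1.864 and 1.222). Cdk4 lay between 33453 and 52954 normalized counts and was called in no comparison, with log2 fold changes of -0.60, -0.36 and 0.24. Over the 10 cyclin and CDK genes of the list, 0 were called higher and 2 lower, 1 higher and 2 lower, and 2 higher and 2 lower, with medians of -0.07, -0.09 and 0.08.

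**Figure D4:**
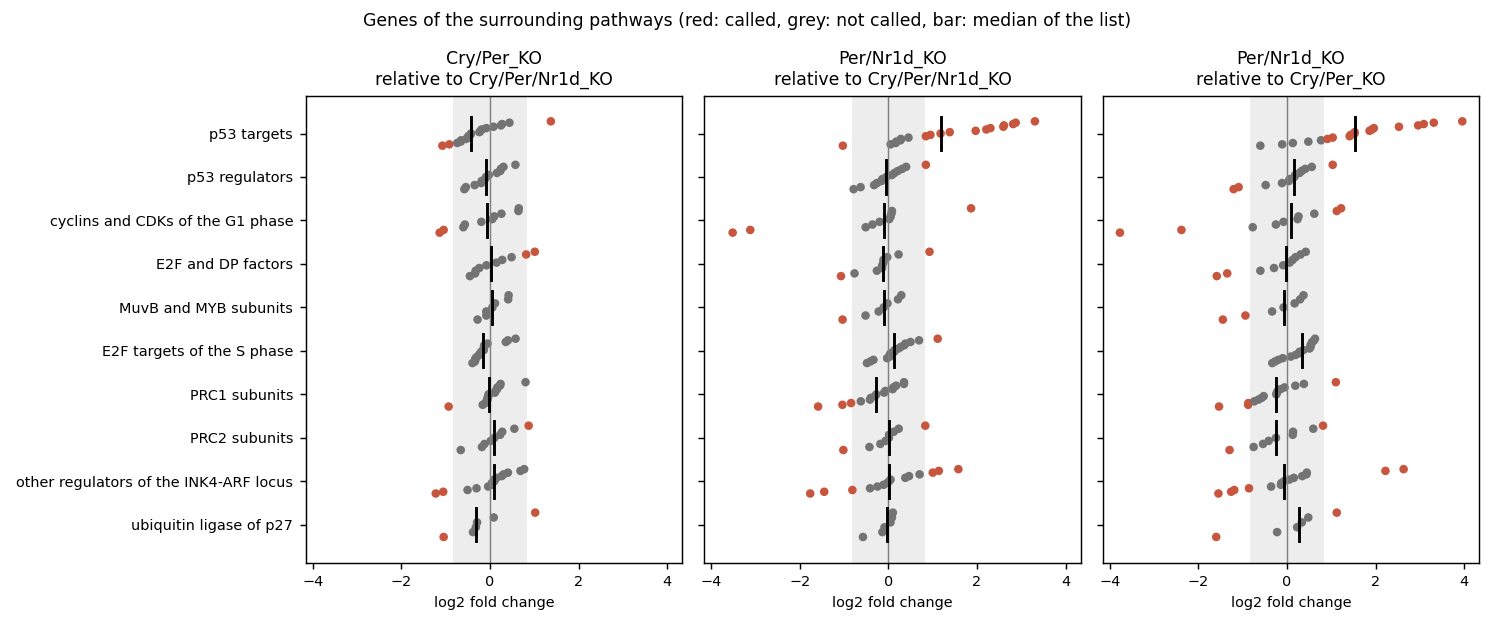
Log2 fold changes of the genes in 10 pathway lists, with 1 point per gene, called genes in red, the median of each list as a bar and the range within the fold limit in grey. Perp and the list of 3 further genes named as CDK inhibitors are not drawn, apart from Cdkn1a among the p53 targets. The p53 targets lie mostly above 0 in both comparisons of Per/Nr1d_KO (medians 1.18 and 1.53), the medians of the other lists drawn lie between -0.30 and 0.33, and Ccnd1 and Ccnd2 stand at the far left of the G1 list in both of these.

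Downstream of the pocket proteins, 2 of 10 E2F and DP factors were called in each comparison. Of these, E2f6 (1.01) and Tfdp2 (0.82) were higher in the CP-labelled libraries than in the CPN-labelled ones. In Per/Nr1d_KO, E2f2 was lower in both comparisons (-1.07 and -1.35), with E2f6 (0.93) higher relative to the CPN-labelled libraries and Tfdp2 (-1.58) lower relative to the CP-labelled ones. Tfdp2 lies on chromosome 9, whose medians were 0.38, -0.46 and -0.84 in the order of comparisons used above. The part of the chromosome in the Tfdp2 result was not tested. A list of 7 genes held subunits of the MuvB complex and its partners Mybl2 and Foxm1. This complex switches between repression with p130 and activation in late cycle. Of the 7, Foxm1 was called lower in Per/Nr1d_KO in both comparisons (-1.04 and -1.45) and Lin52 (-0.94) relative to the CP-labelled libraries. The list medians were 0.03, -0.13 and -0.01 for the E2F and DP factors, and 0.05, -0.11 and -0.08 for the MuvB list, of which none was called in the first comparison, where 4 passed edgeR's adjusted p without the fold limit.

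Of 16 E2F targets of the S phase, only Rrm2 was called, in 1 comparison. This gene of ribonucleotide reductase had 10919 and 11241 normalized counts in the CP-labelled libraries, 7565 and 7279 in the CPN-labelled ones, and 15769 and 16308 in Per/Nr1d_KO, and was called 1.11 higher on the log2 scale in Per/Nr1d_KO than in the CPN-labelled libraries. Without the fold limit, edgeR's adjusted p was passed by 3 genes upward and 11 downward, by 8 upward and 3 downward, and by 11 upward and 4 downward in the 3 comparisons. The list medians were -0.17, 0.14 and 0.33.

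The genes with the pattern most like each of the 10 over the 6 libraries were found by the Euclidean distance between log2 levels centred on their mean, a description over 6 points that share their libraries. Eno2 (distance 0.148), 9530077C05Rik (0.156) and Slc8b1 (0.17) were nearest to Cdkn2d. For Cdkn1b these were Tmem171 (0.0375), Dpp8 (0.0806) and Ncoa1 (0.113), and for Trp53 they were Hnrnpa1 (0.0667), Zbtb7b (0.0883) and Vps36 (0.0998). The nearest gene was Map1s for Cdkn2a, Dcp1a for Cdkn2b, Tubg1 for Cdkn2c, Cep78 for Rb1, Diaph2 for Rbl1, Appl2 for Rbl2 and Arl5b for Bmi1. None of the 10 genes was among the 3 nearest to another of them.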

How the data were processed

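Poly-A RNA was sequenced as single-end reads of stranded libraries. STAR was used by the authors to align to mm10 and featureCounts to count, and the raw counts they deposited are whole numbers per Entrez Gene ID, not normalized. The strand setting and the handling of reads with several matches are not given in the sources used here. The authors' deposited DESeq2 tables (version 1.22.2 per the labels), which hold a mean level, log2 fold changes with their errors, and p-values, were not used.

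Symbols and promoter sequences came from RefSeq (GRCm38.p6, the assembly of mm10), which matched 25275 of the 27179 IDs, and exon lengths, overlaps and stretches of 50 bases from GENCODE. The exon length of a gene is the union over its transcripts.

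Counts were fitted with edgeR 4.0.16 in R 4.3.3 (TMM scaling, quasi-likelihood, all 6 libraries in 3 groups, no covariate), over genes whose mean reached 100 normalized counts. The p-values, two-sided, were adjusted by Benjamini and Hochberg over all 11934 genes tested. The SE was taken as the absolute log2 fold change over the square root of its F value. With 2 libraries per line, every SD rests on 2 values, and a p-value measures the spread between libraries of 1 line, not between lines. The analysis was tested on simulated data. Alternatives were DESeq2 1.42.0, its size factors, other filters and limits, glmTreat, fits of the compared groups alone, a block for replicate numbers, chromosome medians subtracted, and each library left out.

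Besides the 10 genes, the text names at most the 3 called genes with the largest change per list and comparison, the 3 nearest patterns per gene, and neighbours of Cdkn2a. The members and lists were chosen with earlier results of these data known. Arntl, Tubb3, Cd68, Cdkn3, Bbc3, Gadd45a, Ccnd3, Cdk4, Ets1, Junb, Twist1 and Phc1 were named after their values were seen. The result of 1 gene of a list is not reported here.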

Additional observations from a re-analysis of the deposited data

How the results depend on the processing

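Of the 10 genes in 3 comparisons, the 4 calls held with DESeq2 1.42.0 at an adjusted p under 0.05 or under 1e-22, with its size factors, with the compared groups alone, with a mean of at least 10, without a filter, and with any library left out. The 10 genes had at least 703 raw counts in each library. The causes of the changes below were not tested. Without a fold limit, 7, 9 and 8 of the 10 were called, with 9118, 9042 and 9793 genes over all tested, by construction. With glmTreat, and with chromosome medians subtracted, 0 of the 10 were called in the first and 0 in the second comparison. Leaving out 1 library gave 1 to 2 called in the second comparison (Cdkn1b or Rb1 added) and 1 and 2 in the others. Over all genes, these runs called 2001 to 2042, 2451 to 2519 and 3434 to 3496 genes, against 2006, 2468 and 3457 in the main analysis. DESeq2 under 1e-22 called 1101, 1764 and 2532 genes in the 3 comparisons. At these limits the paper's count for Per/Nr1d_KO relative to Cry/Per/Nr1d_KO lies nearer 2532, from the CP-labelled libraries, than 1764, from the CPN-labelled ones. A mean of at least 10 called 3311 and 3912 in the first 2 comparisons, and no filter 3808, 4576 and 5590.

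Signs turned as follows. With chromosome medians subtracted, for the CP-labelled relative to the CPN-labelled libraries, Chek1 was at -0.0717, Cbx6 at 0.24 and Jarid2 at -0.33. For Per/Nr1d_KO relative to the latter, Cdkn2c was at 0.0143, Cks1b at -0.16 and Pcgf6 at -0.0539. For Per/Nr1d_KO relative to the CP-labelled libraries, Rb1 was at -0.24 and E2f6 at 0.15. With each library left out in turn, values near 0 ran from -0.0461 to 0.1034 for Rbl1 and from -0.0547 to 0.0837 for Jarid2 in the first comparison, and from -0.038 to 0.0253 for Rbl2 in the second.

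The replicate numbers do not pair the libraries, since deviations of same-numbered libraries from their line means correlated at -0.167, -0.068 and -0.015 over 11934 genes. With the replicate number as a block, 1, 1 and 2 of the 10 genes were called, Cdkn2c no longer passed the adjusted p in the second comparison (0.0651, without a fold limit), and the count over all genes in the first comparison was 2002.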
